A study of Mus musculus with 32 samples.

Results

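Gene expression was compared between the lungs of Car6-/- mice and the lungs of wild-type mice. The comparison takes the 14 lung samples of a series of 28 samples, 6 from Car6-/- and 8 from wild-type animals; the other 14 samples are tracheae of mice of the same genotypes. Every animal was a C57BL/6 male aged 2 months, and the groups differed, per the labels, only in the Car6 genotype. The sources used here do not describe the allele, the litters or the time of day of sampling. Total RNA was labelled with biotin and hybridised to Illumina bead arrays, on which each probe reports the brightness of its beads. Car6-/- lung 1 and wild-type lung 2 had a second array, which was averaged with the first, so that 7 and 9 arrays stand behind the 6 Car6-/- and 8 wild-type samples. The labels number the samples within genotype and do not state that each is a separate animal, so p-values measure the spread between these samples.

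Car6 encodes carbonic anhydrase VI, the secreted member of an enzyme family that converts carbon dioxide and water into bicarbonate and protons. It is best known from saliva and milk. In the lung, membrane-bound carbonic anhydrase 4 on capillary endothelium and cytosolic carbonic anhydrase 2 serve carbon dioxide exchange, while alveolar type 1 cells form the gas exchange surface and alveolar type 2 cells make surfactant. The series asked which genes change in the lower airways when the secreted enzyme is lost.

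The samples carried the markers of lung. Of 16 alveolar type 2 genes on the array, 15 were detected in all 14 samples, surfactant genes Sftpa1, Sftpb, Sftpc and Sftpd among them, as were 11 of 13 alveolar type 1 genes and 20 of 23 endothelial genes. Car6 had 1 probe (ILMN_1257323), detected on 0 of 16 lung arrays, and its smallest detection p-value there was 0.12. Its uncorrected signal was 82.9 to 95.7 in Car6-/- lungs and 79.4 to 97.8 in wild-type lungs, so the array gives no check of the genotype labels. The arrays detected 11840 to 12603 probes in Car6-/- lungs and 11735 to 13139 in wild-type lungs. The samples farthest from the median profile of the other lungs were Car6-/- lung 5 at a root mean square of 0.306 and wild-type lung 6 at 0.293 (log2). Those samples also had the highest mean level of the skeletal muscle genes, 10.52 in Car6-/- lung 5 and 8.53 in wild-type lung 6, against 5.46 to 6.42 in the other Car6-/- lungs and 5.90 to 6.98 in the other wild-type lungs. The contribution of muscle RNA to the results was not tested.

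All levels below are normalized log2 intensities, and a difference is the mean of Car6-/- lungs minus the mean of wild-type lungs on that scale, with its standard error. A value given with ± and no other word is such a difference. Of 9417 genes tested with limma, 2 passed an adjusted p of 0.05 (Benjamini-Hochberg), which is 0.0212%. Both rose in Car6-/- lungs. An unadjusted p under 0.05 was found for 884 genes (9.39%), with 452 higher (4.80%) and 432 lower (4.59%) in Car6-/- lungs, where 471 are expected if no gene differs. The median difference over all genes was -0.003, the middle 80% of genes lay between -0.16 and 0.16, and 12 genes differed by more than 1.

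Oas2, on chromosome 5, was one of the genes that rose. It encodes an oligoadenylate synthetase, an interferon-induced enzyme that senses double-stranded RNA and makes the messenger that activates RNase L. Its level ran from 5.98 to 6.42 with a median of 6.26 in Car6-/- lungs, and from 5.45 to 5.86 with a median of 5.74 in wild-type lungs. No Car6-/- lung overlapped the wild-type range. The means were 6.23 ± 0.15 in Car6-/- lungs and 5.72 ± 0.14 in wild-type lungs (SD, n = 6 and 8), a difference of 0.51 ± 0.08, or 1.43-fold, with an adjusted p of 0.0359. The other was probe ILMN_2958159, which carries no gene name in the annotation used here. It read 9.18 to 9.48 with a median of 9.30 in Car6-/- lungs, against 8.54 to 9.06 with a median of 8.68 in wild-type lungs, again without overlap. The difference was 0.55 ± 0.08 (1.46-fold, adjusted p = 0.0359). These calls depended on the processing: over 28 alternative settings the difference kept its sign in all, but the adjusted p stayed under 0.05 in 10 of 28 for Oas2 and in 14 of 28 for the unnamed probe. The size of the Oas2 difference ran from 0.24, without background correction and with the authors' deposited values, to 0.56, and that of the unnamed probe from 0.48 to 0.62. No gene passed when any one of Car6-/- lungs 1, 2, 4 or 6 or of wild-type lungs 4, 5, 6 or 7 was left out, whereas 34 passed without Car6-/- lung 7.

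**Figure D1:**
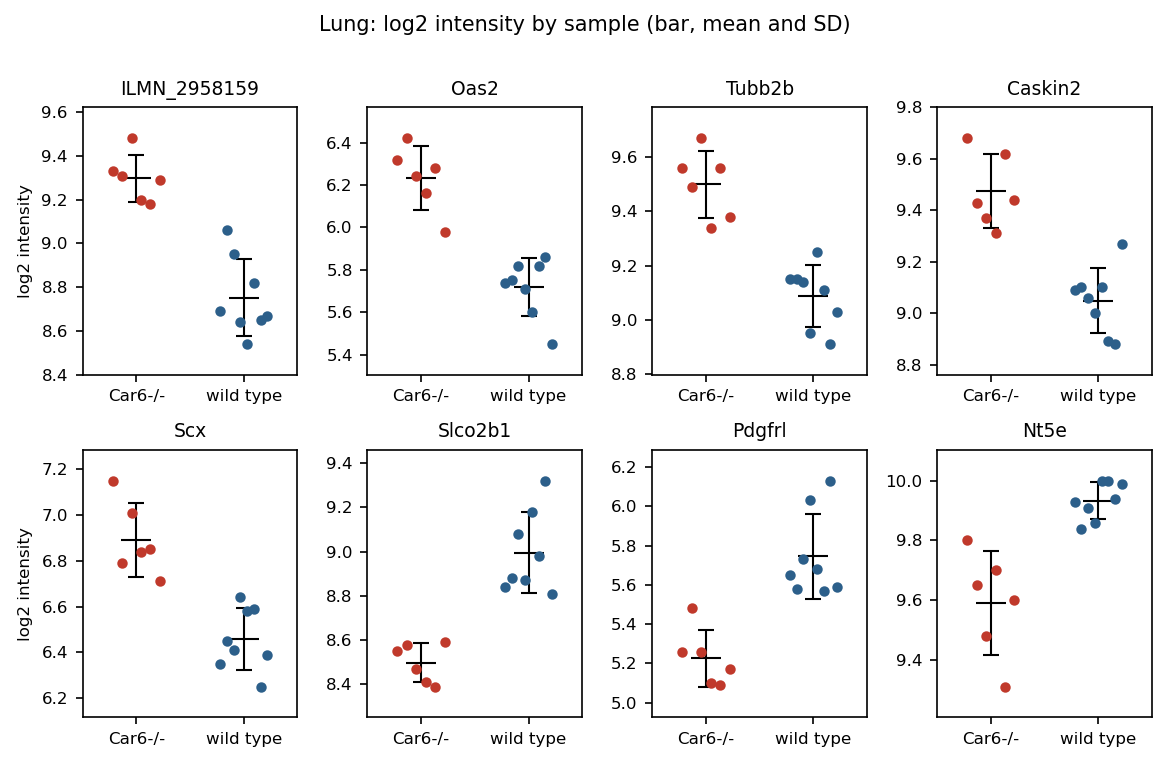
Log2 intensity (y axis) of 8 probes or genes in each Car6-/- lung (red, left, 6 samples) and wild-type lung (blue, right, 8 samples); the bar is the mean and SD. In all 8 panels the Car6-/- points lie apart from the wild-type points, above them in the first 5 panels and below them for Slco2b1, Pdgfrl and Nt5e; ILMN_2958159 and Oas2 passed the adjusted p of 0.05.

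Of the 12 Oas genes on the array, 4 were detected well enough to be tested and 6 were detected in no lung. Besides Oas2, Oas1g had an unadjusted p under 0.05. Its level was 6.74 to 7.30 with a median of 7.08 in Car6-/- lungs and 6.39 to 6.80 with a median of 6.64 in wild-type lungs, and 5 of 6 Car6-/- lungs lay above all wild-type lungs. The difference was 0.43 ± 0.10 with an adjusted p of 0.116, and a further probe of Oas1g gave 0.19 ± 0.14 (unadjusted p = 0.18, limma). The Oas genes include close copies of one another, so a probe may read more than one of them. The Oas-like genes differed less, with Oasl1 (above background in 4 Car6-/- lungs and 4 wild-type lungs) at 0.18 ± 0.10 and Oasl2 at -0.07 ± 0.08; a further probe of Oasl2 gave 0.18 ± 0.11.

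The wider interferon lists had medians near 0. Among 14 sensing and signalling genes, 2 were higher with an unadjusted p under 0.05 and 0 lower, and the median difference was -0.01. The 2 were Ifnar2, a subunit of the type I interferon receptor, at 0.21 ± 0.09, and Irf7, a transcription factor of the interferon response, at 0.22 ± 0.10. A further probe of Ifnar2 gave 0.02 ± 0.11. Of 28 effector genes, 2 were higher and 2 lower at that threshold, with a median of 0.02. Bst2, which tethers budding virus to the cell surface, differed by 0.54 ± 0.16. Its levels were 8.63 to 9.49 in Car6-/- lungs and 8.15 to 9.16 in wild-type lungs, so that the groups overlapped. Isg15, a ubiquitin-like modifier, differed by 0.36 ± 0.11 (adjusted p = 0.257). Ifit3, which binds viral RNA with its partners, differed by -0.29 ± 0.13 and Samd9l by -0.19 ± 0.09, with 2 further Ifit3 probes at -0.20 ± 0.19 and -0.18 ± 0.16. The lists hold 14.3% of members with an unadjusted p under 0.05 in each case, beside 9.39% of all genes.

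The promoters of 2 of these genes are shown because interferon-stimulated genes are classically read through the interferon-stimulated response element, whose consensus was searched on both strands (matches in capitals; overlapping matches run together). The sequences are from RefSeq (GRCm38.p6) and run from 250 bases before to 50 bases after the gene start, 5′ to 3′ on the gene's strand. Isg15 lies on the minus strand of chromosome 4 (chr4:156200769-156201068) and Oas1g on the minus strand of chromosome 5 (chr5:120887564-120887863).
Isg15: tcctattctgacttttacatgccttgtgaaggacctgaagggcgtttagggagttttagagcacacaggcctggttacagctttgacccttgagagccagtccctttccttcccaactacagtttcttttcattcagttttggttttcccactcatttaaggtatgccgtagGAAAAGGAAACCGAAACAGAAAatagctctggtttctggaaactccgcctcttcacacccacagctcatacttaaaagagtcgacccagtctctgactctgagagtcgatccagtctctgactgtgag
Oas1g: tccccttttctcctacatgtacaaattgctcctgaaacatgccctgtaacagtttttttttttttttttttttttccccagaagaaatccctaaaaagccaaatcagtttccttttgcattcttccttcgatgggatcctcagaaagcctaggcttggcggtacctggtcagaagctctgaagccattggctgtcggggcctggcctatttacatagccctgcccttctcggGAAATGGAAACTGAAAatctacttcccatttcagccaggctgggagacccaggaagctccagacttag
Isg15 held 3 overlapping matches and Oas1g 2. Of the 46 Oas and interferon genes tested, 36 had a promoter in the table, and 14 of their 46 promoters (30.4%) held the motif, against 3.44% of all 32851 promoters. The 2 genes shown are among the 13 that held it. Oas2, the called gene, had no promoter there and was not searched. A match describes the letters only.

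Beyond the called genes, the 12 genes per direction with the smallest p had adjusted p-values of up to 0.116, and all but the 2 called stayed above the threshold. Slco2b1, an organic anion uptake transporter, came closest (adjusted p = 0.0560). It read 8.39 to 8.59 with a median of 8.51 in Car6-/- lungs and 8.81 to 9.32 with a median of 8.93 in wild-type lungs. The groups did not overlap, and the difference was -0.50 ± 0.08. Groups without overlap were seen for 20 genes (0.212% of those tested), 11 of them higher (0.117%) and 9 lower (0.0956%) in Car6-/- lungs.

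Among genes that lay entirely above the wild-type range were Tubb2b, a beta-tubulin, at 0.41 ± 0.07 (adjusted p = 0.0603), Caskin2, a scaffold protein, at 0.43 ± 0.08 (adjusted p = 0.0697), and Scx, the tendon transcription factor scleraxis, at 0.43 ± 0.08 (adjusted p = 0.0725). Scx was read at 6.71 to 7.15 in Car6-/- lungs and 6.25 to 6.64 in wild-type lungs. It was tested with only 2 other genes of a list of 15 tendon and cartilage genes, 11 of which were detected in no lung. Ahsa2, related to an activator of the Hsp90 chaperone, differed by 0.44 ± 0.09 without overlap, and 6 Car6-/- lungs and 6 wild-type lungs detected it. Its difference ran from 0.16 to 0.48 over 28 alternative settings. Bicd2, a dynein adaptor, at 0.31 ± 0.06, and Hyal2, a hyaluronidase, at 0.38 ± 0.08, had 5 of 6 Car6-/- lungs above all wild-type lungs, and a further probe of Bicd2 gave 0.13 ± 0.11.

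Genes that lay entirely below the wild-type range included Pdgfrl, a protein related to the PDGF receptors, at -0.52 ± 0.10 (5.09 to 5.48 in Car6-/- lungs, 5.57 to 6.13 in wild-type lungs). Nt5e, the ectonucleotidase CD73 that makes adenosine, differed by -0.35 ± 0.07, with levels of 9.31 to 9.80 in Car6-/- lungs and 9.84 to 10.00 in wild-type lungs. Arap1 differed by -0.40 ± 0.09, and the unnamed probes ILMN_1255634 and ILMN_2943135 by -0.37 ± 0.07 and -0.38 ± 0.08. Arhgef19 (-0.53 ± 0.10), Ints7, an Integrator subunit (-0.34 ± 0.07), and Cd163, the haemoglobin scavenger receptor of macrophages (-0.49 ± 0.11), had 5 of 6 Car6-/- lungs below all wild-type lungs. A further probe gave -0.14 ± 0.13 for Arap1 and -0.25 ± 0.08 for Nt5e. The adjusted p of these 8 probes or genes ran from 0.0697 to 0.116. Over 28 alternative settings the difference of Pdgfrl ran from -0.57 to -0.20 and that of Arap1 from -0.44 to -0.17.

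The largest differences among the genes with small p were not shared by every sample. Rab6b, a Golgi GTPase, differed by -1.82 ± 0.34 (0.283-fold, adjusted p = 0.0697). It was at 6.01 to 6.93 with a median of 6.18 in Car6-/- lungs. Wild-type lungs 1 and 2, at 6.56 and 6.75, lay within that range, and wild-type lungs 3 to 8 lay between 8.39 and 8.76. Leaving out wild-type lung 1, wild-type lung 2 or Car6-/- lung 7 brought its adjusted p under 0.05, and the difference ran from -2.05 to -1.24 over 28 settings. In trachea the wild-type samples numbered 1 and 2 were likewise the lowest of their group, at 4.68 and 4.89 against 5.68 to 7.17 in the other 6. Car6-/- trachea 1 was at 6.38, within the range of those 6, and the other Car6-/- tracheae were at 4.45 to 5.17.

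Spon2, a secreted matrix protein of innate immunity, and Cdkn1a, the cell cycle inhibitor p21, were higher by 1.16 ± 0.24 and 1.06 ± 0.21 (adjusted p = 0.0981 and 0.0784). Spon2 was at 10.66 to 11.39 in Car6-/- lungs 1, 2, 4 and 5, at 9.89 in Car6-/- lung 6 and at 9.39 in Car6-/- lung 7, against 8.94 to 9.86 in wild-type lungs. Cdkn1a was at 9.81 to 10.54 in all Car6-/- lungs but the one numbered 7, which at 8.89 lay among the wild-type lungs (8.48 to 9.30). All 3 probes of Cdkn1a read the same direction, the other 2 at 1.03 ± 0.20 and 1.08 ± 0.21.

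**Figure D2:**
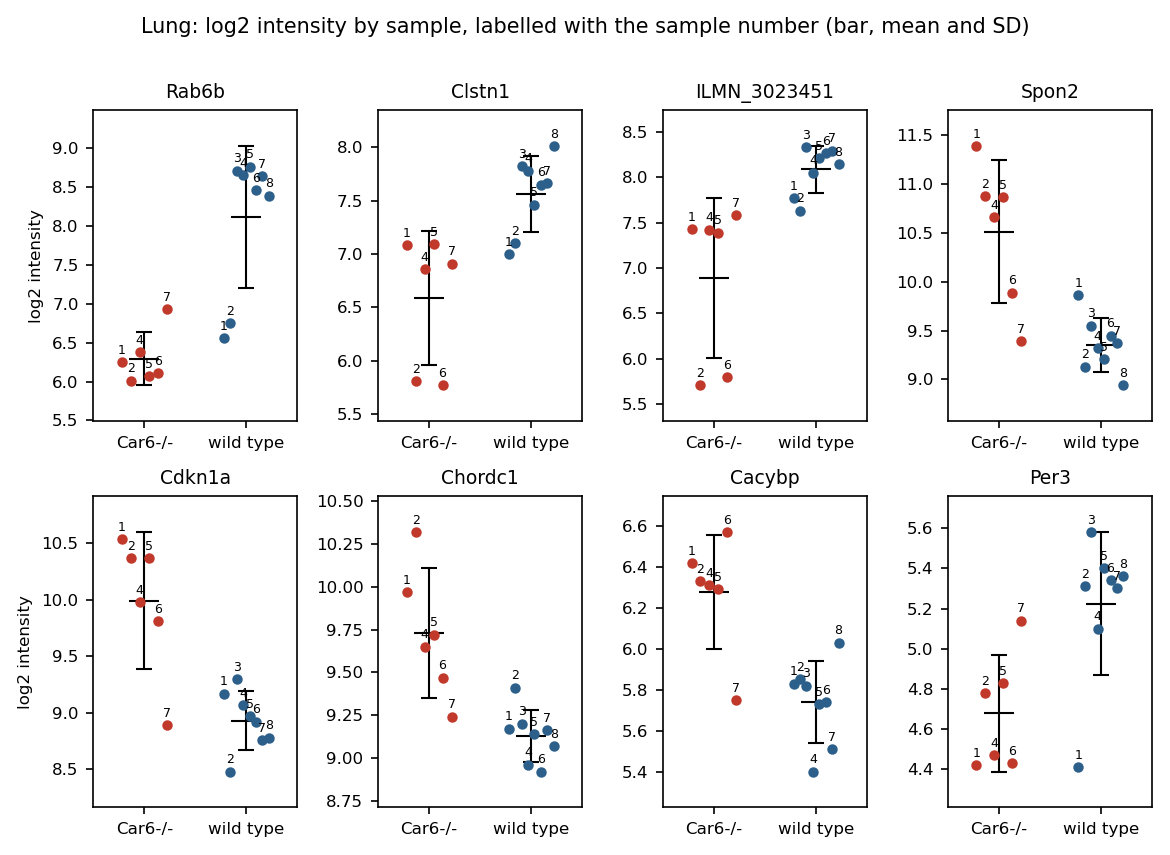
Log2 intensity (y axis) of 8 probes or genes in which samples of one genotype lay far apart, for Car6-/- lungs (red, left) and wild-type lungs (blue, right), each point labelled with its sample number; the bar is the mean and SD. Wild-type lungs 1 and 2 lie with the Car6-/- lungs for Rab6b, Car6-/- lungs 2 and 6 lie lowest for Clstn1 and ILMN_3023451, and Car6-/- lung 7 lies among the wild-type lungs for Cdkn1a, Spon2 and Cacybp.

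Among the lists described, those of circadian clock genes held the highest shares of members with an unadjusted p under 0.05. The lists were chosen with earlier results of these data known, so this ranking gives no independent support. The clock is a feedback loop in which Arntl (BMAL1) and Clock activate genes through E-boxes, among them their own repressors of the Per and Cry families. The Nr1d receptors repress Arntl and the ROR receptors activate it, both through ROR elements, and Dbp, Tef and their opponent Nfil3 act on D-boxes of output genes. Of 20 clock genes on the array, 15 were tested, and 12 of them had an unadjusted p under 0.05, beside 9.39% of all genes. None passed after adjustment over all genes, and the lowest adjusted p was 0.0851.

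Of 3 activators tested, Arntl differed most, by 1.28 ± 0.25 (2.42-fold). That difference was 0.59 without background correction, 0.61 with the authors' deposited values and 0.83 with an offset of 50. Its level was 7.20, 6.58, 7.02, 6.94, 5.94 and 5.30 in Car6-/- lungs 1, 2, 4, 5, 6 and 7, against 4.74 to 5.74 with a median of 5.14 in wild-type lungs, 6 of 8 of which detected it. All Car6-/- lungs but number 7 thus lay above every wild-type lung and that one within their range. Clock differed by 0.34 ± 0.09, with 5 of 6 Car6-/- lungs above all wild-type lungs and Car6-/- lung 7 at 8.57 among them. Rora differed by 0.01 ± 0.09.

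All 8 repressors tested had a lower mean in Car6-/- lungs, 6 of them with an unadjusted p under 0.05, and the median difference was -0.45. Nr1d2 was at 7.57 to 8.95 with a median of 8.32 in Car6-/- lungs and 8.63 to 8.96 with a median of 8.74 in wild-type lungs, a difference of -0.53 ± 0.17. Nr1d1 differed by -0.32 ± 0.15. Per2 differed by -0.45 ± 0.17. Per3 differed by -0.55 ± 0.16 and was detected in 1 of 6 Car6-/- lungs and 6 of 8 wild-type lungs. It thus met the detection filter through the wild-type lungs, which by itself favours a lower value in Car6-/- lungs. The counts of clock genes given here include it. Over 27 alternative settings its difference ran from -0.67 to -0.18. Ciart, a repressor of the Arntl and Clock pair, differed by -0.47 ± 0.19 and Bhlhe40, which competes for E-boxes, by -0.44 ± 0.14. Per1 (-0.03 ± 0.14) and Cry2 (-0.05 ± 0.10) differed by less than their standard errors, and the sign of Per1, Cry2 and Rora changed under other settings.

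The 4 output genes tested all had an unadjusted p under 0.05. Dbp, an activator at D-boxes with one of the strongest daily rhythms known, was at 9.15, 10.12, 10.69, 9.40, 11.84 and 12.21 in Car6-/- lungs 1, 2, 4, 5, 6 and 7, against 11.50 to 12.24 in wild-type lungs. Of the 6, 4 lay below the wild-type range and 2 within it, for a difference of -1.33 ± 0.38. Tef, of the same family, differed by -0.59 ± 0.18 and the deubiquitinase Usp2 by -0.52 ± 0.13. A further probe of Tef gave only -0.12 ± 0.13 (unadjusted p = 0.337, limma). Nfil3, the repressor at D-boxes, ran the other way at 0.86 ± 0.24. It was at 7.30 to 8.36 in Car6-/- lungs 1, 2, 4 and 5 and at 6.62 and 6.52 in Car6-/- lungs 6 and 7, against 6.26 to 6.87 in wild-type lungs.

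Counted by sample, Car6-/- lungs 1, 2, 4 and 5 lay outside the wild-type range for 11, 9, 12 and 11 of the 15 clock genes. Car6-/- lung 6 did so for 5 and Car6-/- lung 7 for 1. Over all genes tested the share outside the wild-type range was 21.1% to 29.1% in each of the 6 Car6-/- lungs. Arntl, Clock, Dbp and Usp2 each passed the adjusted p of 0.05 in 1 of 28 alternative settings, the one without Car6-/- lung 7. That sample lay outside the wild-type range for the fewest clock genes. Leaving it out therefore gives these calls no independent support. In the tracheae with the same numbers, numbers 1, 2, 4 and 5 again lay apart from 6 and 7 for Arntl and Dbp, though not for Nfil3. Clock and Usp2 were not read by sample in trachea. Arntl was at 6.89 to 7.56 in Car6-/- tracheae 1, 2, 4 and 5, at 6.44 and 6.45 in numbers 6 and 7, and at 5.31 to 6.48 in wild-type tracheae. Dbp was at 9.75 to 10.63 in Car6-/- tracheae 1, 2, 4 and 5, at 11.62 and 11.53 in numbers 6 and 7, and at 11.33 to 11.88 in wild-type tracheae.

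**Figure D3:**
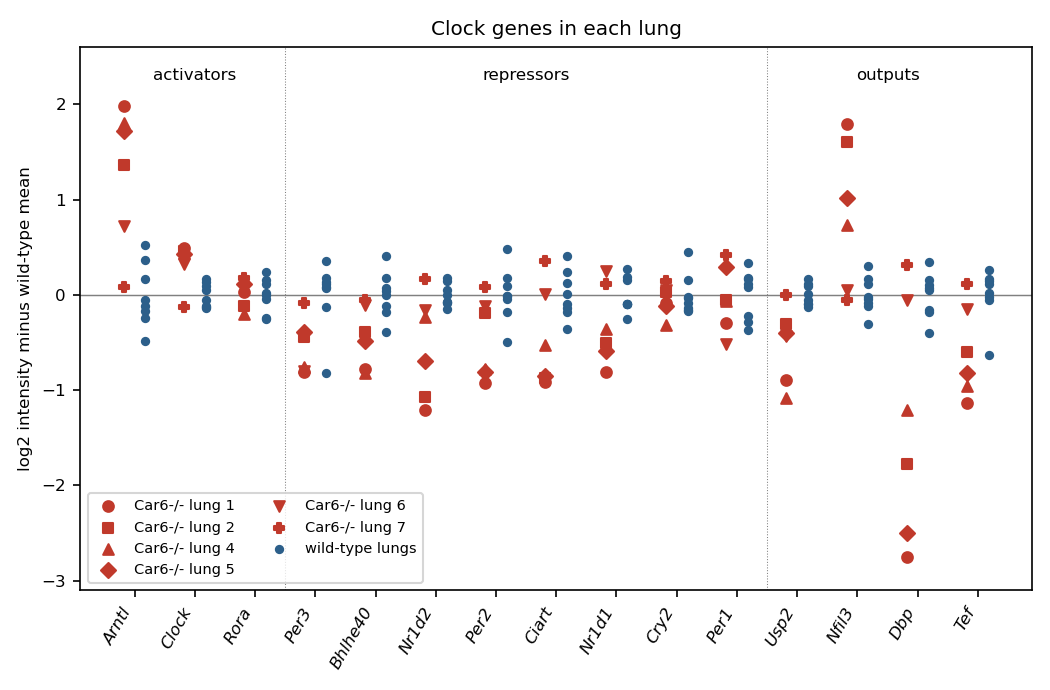
Log2 intensity of 15 clock genes (x axis, by role) in each lung, minus the mean of the wild-type lungs (y axis). Red symbols are the 6 Car6-/- lungs, one shape per sample, and blue points the 8 wild-type lungs; Car6-/- lungs 1, 2, 4 and 5 lie farthest from the wild-type points for Dbp, Nfil3 and Arntl, while Car6-/- lung 7 lies among them for these 3 genes.

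Promoters of 3 clock genes are shown with matches to patterns for elements of the loop. For Arntl (plus strand, chr7:113207215-113207514) the pattern was TNGGTCA, a loose form of the ROR element core with any base at N. For Ciart (minus strand, chr3:95882179-95882478) it was the E-box CACGTG. For Per3 (minus strand, chr4:151044616-151044915) it was the D-box TTANGTAA. The sequences are from RefSeq (GRCm38.p6) over the same window, 5′ to 3′, with the matches on either strand in capitals.
Arntl: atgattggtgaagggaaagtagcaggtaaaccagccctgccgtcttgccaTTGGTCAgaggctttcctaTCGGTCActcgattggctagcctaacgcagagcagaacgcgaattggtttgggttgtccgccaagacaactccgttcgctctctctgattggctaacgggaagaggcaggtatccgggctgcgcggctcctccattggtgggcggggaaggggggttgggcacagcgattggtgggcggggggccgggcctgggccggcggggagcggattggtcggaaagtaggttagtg
Ciart: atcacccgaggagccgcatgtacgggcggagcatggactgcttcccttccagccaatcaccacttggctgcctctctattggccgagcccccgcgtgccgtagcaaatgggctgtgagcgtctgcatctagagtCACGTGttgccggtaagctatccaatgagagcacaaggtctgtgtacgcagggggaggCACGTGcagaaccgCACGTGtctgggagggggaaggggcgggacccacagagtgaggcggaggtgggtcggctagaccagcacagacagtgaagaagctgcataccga
Per3: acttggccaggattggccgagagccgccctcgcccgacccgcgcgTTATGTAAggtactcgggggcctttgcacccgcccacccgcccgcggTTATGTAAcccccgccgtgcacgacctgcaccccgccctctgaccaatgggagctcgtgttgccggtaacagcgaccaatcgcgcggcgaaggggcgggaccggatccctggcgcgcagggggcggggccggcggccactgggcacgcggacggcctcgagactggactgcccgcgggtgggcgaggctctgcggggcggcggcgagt
Arntl held 2 matches, Ciart 3 and Per3 2. Of the 15 clock genes, 13 had a promoter in the table, with 18 promoters in all. The loose ROR pattern was found in 6 of the 18 (33.3%, against 11% of all promoters), the E-box in 4 (22.2%, against 7.15%) and the D-box in 1 (5.56%, against 2.32%). By gene, the ROR pattern was held by 5, the E-box by 3 and the D-box by 1. The genes shown are thus examples that hold the letters searched. The 2 Arntl matches have T and C at N, and whether they are ROR elements was not tested. Arntl has 2 listed starts, of which 1 is shown.

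Genes of the heat shock response had higher means in Car6-/- lungs. These chaperones refold damaged proteins and are induced together by heat shock factor 1. Of 20 tested, 19 had a higher mean and 8 an unadjusted p under 0.05, all 8 in that direction, beside 4.80% of all genes. The median difference was 0.19, and the lowest adjusted p was 0.116. Chordc1, an Hsp90 co-chaperone, was at 9.24 to 10.32 with a median of 9.68 in Car6-/- lungs and 8.92 to 9.41 with a median of 9.15 in wild-type lungs, a difference of 0.60 ± 0.13. Cacybp, the calcyclin-binding protein, differed by 0.54 ± 0.12. For each of these genes 5 of 6 Car6-/- lungs lay above all wild-type lungs, and Car6-/- lung 7 lay within their range. The nucleotide exchange factors Hsph1 and Bag3 differed by 0.62 ± 0.18 and 0.31 ± 0.09, and the Hsp70 and Hsp90 adaptor Stip1 by 0.40 ± 0.12. The list's largest difference belonged to inducible Hsp70, Hspa1a, named after its values were seen: it was at 5.91 to 9.60 in Car6-/- lungs and 5.37 to 6.91 in wild-type lungs (1.30 ± 0.47).

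The Chordc1 promoter (RefSeq, GRCm38.p6, plus strand, chr9:18292017-18292316) is shown for the heat shock element, with matches on either strand in capitals.
Chordc1: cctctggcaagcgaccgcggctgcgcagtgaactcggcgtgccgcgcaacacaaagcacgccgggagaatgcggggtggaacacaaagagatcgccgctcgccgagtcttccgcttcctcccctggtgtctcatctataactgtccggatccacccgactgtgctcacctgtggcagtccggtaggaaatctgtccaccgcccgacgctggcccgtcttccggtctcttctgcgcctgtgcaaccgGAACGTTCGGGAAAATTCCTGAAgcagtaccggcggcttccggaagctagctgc
It held 3 overlapping matches at the gene start. Of the 20 chaperone genes, 17 had a promoter in the table, and 5 of their 23 promoters (21.7%) held the element, against 0.603% of all promoters. Chordc1 is 1 of the 4 genes that held it.

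Genes of the unfolded protein and integrated stress responses, which answer misfolded protein in the endoplasmic reticulum and slow translation, also had higher means. Of 22 tested, 16 had a higher mean, 8 were higher with an unadjusted p under 0.05 (beside 4.80% of all genes) and 0 lower, and the median was 0.15. Xbp1, the transcription factor of the response, was at 11.75 to 12.20 in Car6-/- lungs and 11.48 to 11.92 in wild-type lungs (0.34 ± 0.09, adjusted p = 0.176). Ddit3, the factor CHOP, differed by 0.39 ± 0.11, and 5 Car6-/- lungs lay above and 1 at or below all wild-type lungs. Atf4, which drives the integrated stress response, differed by 0.29 ± 0.11, the phosphatase subunit Ppp1r15a by 0.20 ± 0.07 and the ubiquitin ligase Syvn1 by 0.27 ± 0.12. Car6-/- lung 6 lay outside the wild-type range for 15 of the 22 genes (68.2%) and the other Car6-/- lungs for 5 to 9 (22.7% to 40.9%). Over all genes tested that share was 26.2% in Car6-/- lung 6 and ran from 21.1% to 29.1% among the Car6-/- lungs. Of 19 immediate early genes, which answer stimuli within minutes, 1 was higher with an unadjusted p under 0.05 (Gadd45g, 0.33 ± 0.12) and 0 lower, with a median of 0.11.

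Glucocorticoid-responsive genes, which follow the adrenal rhythm and stress hormones, had 6 members higher and 2 lower with an unadjusted p under 0.05 among 16, beside 4.80% and 4.59% of all genes, with a median of 0.20. Cdkn1a, given above, is one of them. The kinases Map3k6 and Sgk1 differed by 0.47 ± 0.12 and 0.27 ± 0.09, and Angptl4, an inhibitor of lipoprotein lipase, by 0.60 ± 0.22. Mt1, a metallothionein, was lower, at 11.64 to 12.21 in Car6-/- lungs and 12.01 to 12.52 in wild-type lungs (-0.33 ± 0.10). Car6-/- lung 5 lay outside the wild-type range for 12 of the 16 genes (75%) and the other Car6-/- lungs for 4 to 8 (25% to 50%). Over all genes tested that share was 26.6% in Car6-/- lung 5 and ran from 21.1% to 29.1% among the Car6-/- lungs.

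Of 13 p53 targets and other growth arrest genes, 2 were higher with an unadjusted p under 0.05, beside 4.80% of all genes, and 0 were lower. The 2 were Cdkn1a and Phlda3, an inhibitor of Akt signalling (0.21 ± 0.09). Of 18 proliferation genes, 16 had a lower mean, 3 were lower with an unadjusted p under 0.05 and 0 higher, and the median was -0.18. Over all genes, 51.2% had a lower mean and 4.59% were lower at that p. The 3 were subunits of the replicative helicase. Mcm2 was at 5.54 to 6.15 in Car6-/- lungs and 6.08 to 6.41 in wild-type lungs (-0.38 ± 0.09, adjusted p = 0.116), Mcm5 at -0.25 ± 0.09 and Mcm4 at -0.17 ± 0.07. In whole tissue, fewer cells of a type and less RNA per cell cannot be told apart.

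**Figure D4:**
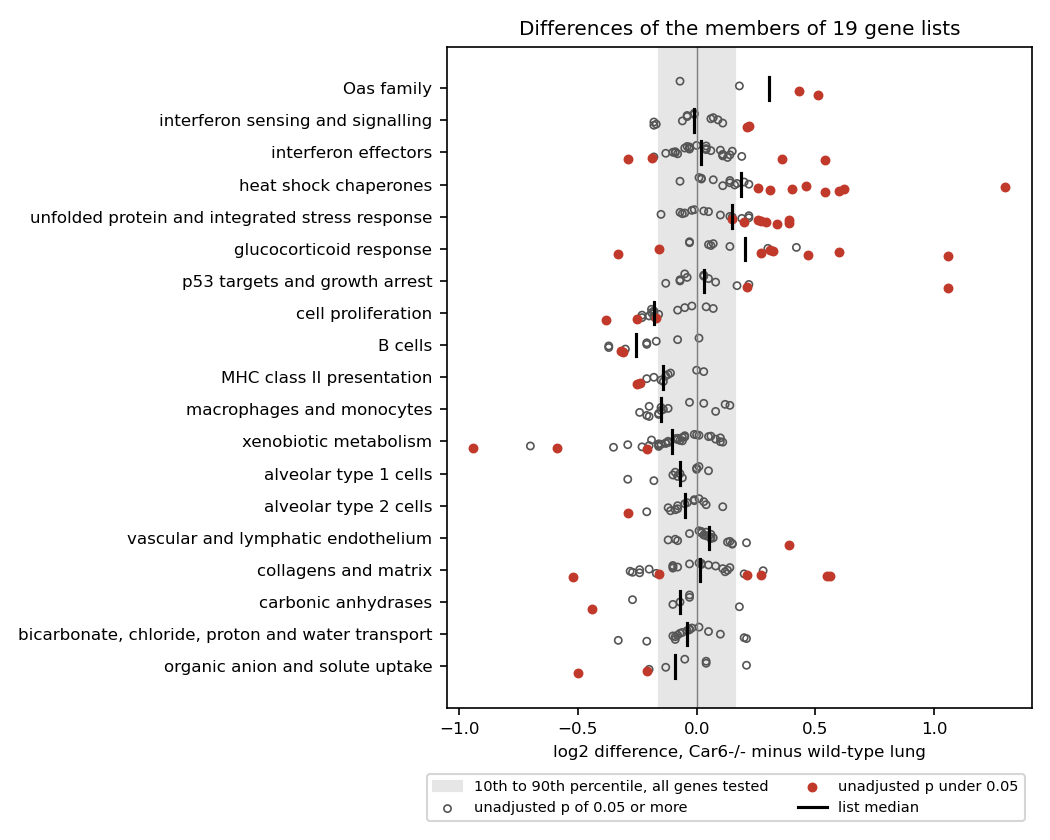
Log2 difference of Car6-/- minus wild-type lung (x axis) for each tested member of 19 gene lists (y axis); red points have an unadjusted p under 0.05, open points do not, the black line is the list median and the grey band holds the middle of all genes, -0.16 to 0.16. The medians of the heat shock, stress response and glucocorticoid lists lie at 0.15 to 0.20, that of proliferation at -0.18, and those of the alveolar and endothelial lists within 0.07 of 0.

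Few immune cell markers had a small p. Of 10 B cell genes, 9 had a lower mean and 2 an unadjusted p under 0.05, beside 4.59% of all genes lower at that threshold: Cd79b, a subunit of the B cell receptor, at -0.31 ± 0.14, and Fcer2a (CD23), above background in 5 Car6-/- lungs and all 8 wild-type lungs, at -0.32 ± 0.15. The mean level of the B cell genes was 6.12, 6.13 and 6.40 in Car6-/- lungs 1, 2 and 6 and 6.69 to 6.82 in the other 3, against 6.56 to 6.87 in wild-type lungs. Antigen presentation by MHC class II had 2 of 11 members lower at that threshold, H2-Ob (-0.25 ± 0.10) and H2-Ab1 (-0.24 ± 0.10), with a median of -0.14. The 3 further probes of H2-Ab1 gave -0.15 ± 0.10, -0.09 ± 0.10 and -0.06 ± 0.10. None of 10 MHC class I genes, 10 T and NK cell genes, 9 neutrophil genes or 15 macrophage genes had an unadjusted p under 0.05, although the macrophage list's median was -0.15. Neutrophil genes varied between samples, with mean levels of 7.85 to 9.03 in Car6-/- lungs and 7.30 to 9.03 in wild-type lungs.

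The same held for markers of the epithelium and vessels. Of 15 alveolar type 2 genes, only Etv5, a transcription factor of these cells, had an unadjusted p under 0.05 (-0.29 ± 0.10), and the median was -0.05. Of the alveolar type 1, ciliated and airway secretory genes, 11, 14 and 11 were tested and 0 passed that threshold, with medians of -0.07, -0.07 and -0.21. The secretory genes spread widely, with mean levels of 8.10 to 10.42 in Car6-/- lungs and 8.31 to 10.37 in wild-type lungs. Of 21 endothelial genes, Sox18, a factor of vessel development, was the one past it, at 9.89 to 10.64 in Car6-/- lungs and 9.67 to 9.96 in wild-type lungs (0.39 ± 0.09, adjusted p = 0.138). Xenobiotic metabolism had 26 of 34 members with a lower mean and 3 past that threshold. All 3 were lower, which is 8.82% of the list beside 4.59% of all genes lower at that threshold. They were Gsta4, a glutathione transferase, at -0.21 ± 0.06, Adh7, an alcohol and retinol dehydrogenase, at -0.59 ± 0.19, and Cyp2e1, a cytochrome P450, at -0.94 ± 0.37. Cyp2e1 was at 7.05 to 9.32 in Car6-/- lungs and 7.92 to 10.38 in wild-type lungs. It was highest in Car6-/- lung 2 and wild-type lung 7, as was the mean of the 11 tested adipocyte genes, 8.39 in Car6-/- lung 2 and 7.10 to 7.82 in the other Car6-/- lungs, against 8.71 in wild-type lung 7 and 7.44 to 8.04 in the other wild-type lungs. Adipoq, the fat cell hormone adiponectin, was at 8.90 in that Car6-/- lung and 9.68 in that wild-type lung and differed by -0.93 ± 0.62. The part of fat tissue in the Cyp2e1 difference was not tested.

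Among 28 collagen and matrix genes, 4 were higher and 2 lower with an unadjusted p under 0.05, beside 4.80% and 4.59% of all genes, and the median was 0.02. Plod1 and Plod2, which hydroxylate collagen lysines, differed by 0.55 ± 0.12 and 0.21 ± 0.08. Eln, elastin, differed by 0.56 ± 0.18 and Loxl1, which cross-links it, by 0.27 ± 0.10. For Eln 5 Car6-/- lungs lay above all wild-type lungs and 1 below. Smooth muscle and cardiac muscle genes held 0 members past that threshold among 12 and 14, and adipocyte genes 2 of 11, both lower, the lipase Lpl (-0.28 ± 0.10) and Dgat2, which makes triglycerides (-0.49 ± 0.21). Fatty acid oxidation had 1 of 15 (Angptl4), glycolysis and the hypoxia response 0 of 18, and the respiratory chain 1 of 35, Atp5j, a subunit of ATP synthase (-0.14 ± 0.07), whose further probe read 0.04 ± 0.10.

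Of 12 carbonic anhydrases on the array, 7 were tested and 4, Car6 included, were detected in no lung. Car11, a relative of the enzymes that lacks their activity, differed most. It was at 5.09 to 5.18 in 5 Car6-/- lungs and 5.58 in Car6-/- lung 7, against 5.43 to 5.83 in wild-type lungs, a difference of -0.44 ± 0.09 with an adjusted p of 0.0855. Over 28 alternative settings that difference ran from -0.51 to -0.16. Car4 was at 10.36 to 10.93 in Car6-/- lungs and 10.40 to 10.80 in wild-type lungs (-0.03 ± 0.09). Car2 was at 7.04 to 7.47 in Car6-/- lungs and 6.46 to 7.55 in wild-type lungs (0.18 ± 0.14). The membrane enzyme Car14 differed by -0.07 ± 0.14, cytosolic Car13 by -0.03 ± 0.14 and mitochondrial Car5b, above background in 3 Car6-/- lungs and 5 wild-type lungs, by -0.10 ± 0.14. Car3, abundant in muscle and fat, spread over 4.66 to 9.13 in Car6-/- lungs and 5.49 to 9.68 in wild-type lungs, and 5 Car6-/- lungs and all 8 wild-type lungs detected it. Transporters of bicarbonate, chloride, protons and water had 0 of 17 members with an unadjusted p under 0.05 and a median of -0.04. Of 8 organic anion and solute carriers, 2 were lower at that threshold (25%, beside 4.59% of all genes). They were Slco2b1 and the thyroid hormone carrier Slco4a1 (-0.21 ± 0.08).

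Genes that lie close to a targeted locus are inherited with it, and the 30 tested genes nearest to Car6 on each side along chromosome 4 were listed by gene order. Of these 60 genes, 5 were higher and 7 lower with an unadjusted p under 0.05, which is 20% beside 9.39% of all genes, and 0 passed after adjustment. Differences on one side of Car6 were larger: among the 30 genes before it in the RefSeq order, 9 had such a p, and 3 among the 30 after it. Clstn1, a calsyntenin that binds kinesin, was at 5.81 and 5.77 in Car6-/- lungs 2 and 6 and at 6.86 to 7.09 in the other 4. Wild-type lungs 1 and 2 were at 7.00 and 7.10, close to those 4, and wild-type lungs 3 to 8 at 7.46 to 8.01. The difference was -0.97 ± 0.23 (adjusted p = 0.116).

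The same samples stood apart for other probes. Fbxo44, an F-box protein of ubiquitin ligases, was lowest in Car6-/- lungs 2 and 6, at 4.53 and 4.28, against 4.97 to 5.29 in the other Car6-/- lungs and 5.14 to 5.86 in wild-type lungs (-0.62 ± 0.15). Only 3 Car6-/- lungs had it above background, against all 8 wild-type lungs, through which it met the detection filter. Its difference ran from -0.70 to -0.22 over 28 alternative settings. Zfp979, a zinc finger gene, was at 5.01 and 4.62 in Car6-/- lungs 2 and 6, at 5.45 to 5.62 in the other Car6-/- lungs and at 5.49 to 6.10 in wild-type lungs (-0.53 ± 0.15), above background in 5 Car6-/- lungs and in all 8 wild-type lungs. The unnamed probe ILMN_3023451, whose position is not known here, was at 5.71 and 5.80 in Car6-/- lungs 2 and 6, at 7.39 to 7.58 in the other 4 and at 7.63 to 8.33 in wild-type lungs (-1.20 ± 0.28, no overlap). Agtrap, a binding partner of the angiotensin II receptor, was lowest in Car6-/- lung 2, at 7.69, and at 8.44 to 8.70 in the other Car6-/- lungs, against 8.51 to 9.48 in wild-type lungs (-0.67 ± 0.16). Miip (-0.57 ± 0.12), Slc25a33, a mitochondrial nucleotide carrier (-0.30 ± 0.10), and Per3, with the limit of detection given above, were also lower. Higher were Plod1, Rbp7, a retinol-binding protein (0.69 ± 0.23), Pik3cd, a leukocyte PI3 kinase subunit (0.22 ± 0.08), Errfi1, an inhibitor of the EGF receptor (0.31 ± 0.13), and Cdk11b (0.18 ± 0.08). H6pd and Errfi1, the nearest tested genes on either side, differed by -0.07 ± 0.06 and 0.31 ± 0.13.

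**Figure D5:**
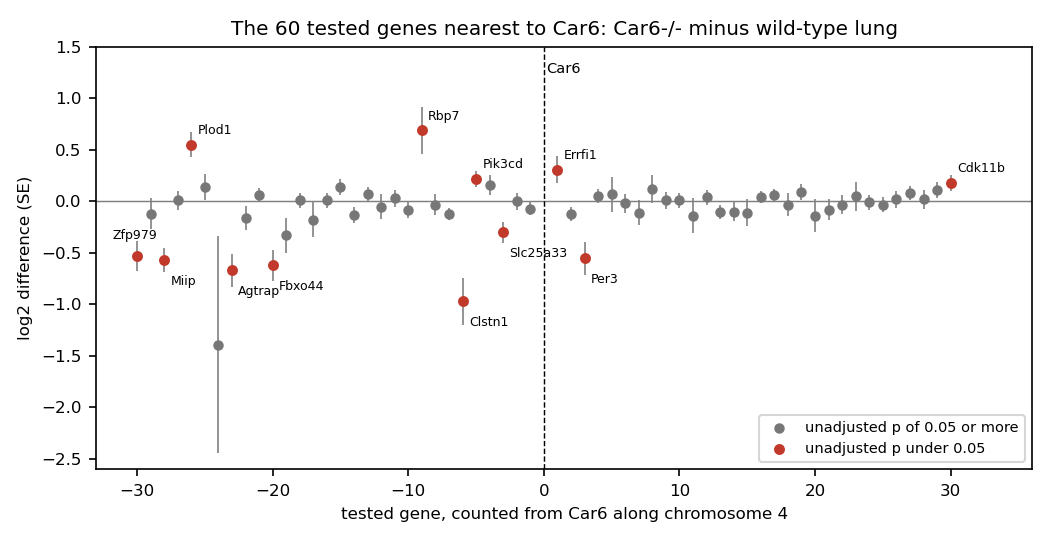
Log2 difference of Car6-/- minus wild-type lung with its SE (y axis) for the 60 tested genes nearest to Car6, counted along chromosome 4 from Car6 at 0 (x axis); red points have an unadjusted p under 0.05. Of the 12 red points 9 lie before Car6 and 3 after it, and the largest red difference is that of Clstn1 at -0.97.

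The genotype difference in lung was set against that in trachea in 1 fit of all 28 samples. Lungs and tracheae were not paired in it. With limma, 0 of 9417 genes (0%) passed an adjusted p of 0.05 for the difference between tissues, and 1196 (12.7%) had an unadjusted p under 0.05. The lowest adjusted p was 0.212. That count rested on single tracheae: 487 genes passed without Car6-/- trachea 4 and 100 without Car6-/- trachea 5. Of the 24 genes with the smallest p in lung, 17 had the same sign in trachea, beside 53.9% of the 8920 genes whose rounded differences were not 0 in either tissue. Oas2 differed by 0.51 ± 0.08 in lung and 0.57 ± 0.22 in trachea. Probe ILMN_2958159 differed by 0.55 ± 0.08 in lung and by 1.24 ± 0.21 in trachea, where it was at 10.93 to 12.34 in Car6-/- tracheae and 10.21 to 10.96 in wild-type tracheae. Scx ran in opposite directions, at 0.43 ± 0.08 in lung and -0.73 ± 0.28 in trachea, and Slco2b1 differed by -0.50 ± 0.08 in lung and 0.09 ± 0.15 in trachea (adjusted p of each difference 0.212).

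The genes with the smallest p for a difference between the tissues had opposite or near-0 values in lung. Exoc3l4 and Tmc7, a member of a channel-like family, differed by 0.32 ± 0.10 and 0.42 ± 0.13 in lung and by -0.54 ± 0.15 and -0.81 ± 0.22 in trachea. Slc25a29, a mitochondrial carrier, differed by 0.15 ± 0.11 in lung and -0.97 ± 0.24 in trachea. Smoc1, a matrix protein, Tcte3, a dynein light chain of testis and cilia, and Aatk, a kinase, differed by -0.33 ± 0.16, -0.18 ± 0.09 and -0.07 ± 0.09 in lung and by 1.11 ± 0.27, 0.55 ± 0.14 and 1.10 ± 0.25 in trachea. Their adjusted p was 0.212 in each case.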

How the data were processed

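Per the file headers, the deposited main table gives a linear-scale intensity for each probe and array and, beside it, a detection p-value. The authors' other lung table is on a log2 scale and was matched by quantile normalizing the uncorrected lung arrays alone (100% of values within 0.005, largest difference 0.005). The scanner software is not given in the sources used here.

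From the intensities, background was corrected with limma's nec (normexp, offset 16), all 32 arrays were quantile normalized, log2 was taken and second arrays were averaged. The 2 lung samples with a second array differed from it by a root mean square of 0.223 (Car6-/- lung 1) and 0.233 (wild-type lung 2), and from the nearest other sample by 0.305 and 0.264. Probes needed a detection p under 0.01 in at least 6 of the 14 lung samples, which 12337 did, and the probe with the highest mean stood for each symbol. This gave 8712 named genes and 705 unnamed probes. Of 25697 probes, 23978 carried 1 gene symbol in the platform annotation, 0 several and 1719 none. RefSeq names (GRCm38.p6) gave the gene order near Car6; no probe positions were used.

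Samples were grouped by the labelled genotype and tissue. Every gene-wise p comes from limma (lmFit and eBayes, two-sided, R 4.3.3 and limma 3.58.1), adjusted by Benjamini-Hochberg over all genes tested. Lists are described by counts and medians, with no test of a list, and the mean level of a list is the mean of its tested members in a sample. The number of arrays limits the precision. The procedure was tested on simulated data. Alternatives changed the background correction, scaling, filter, second arrays, weights, variance model, samples in the fit and replicate block, and left out samples.

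The comparison, the gene lists and the alternatives were chosen with earlier results of these data known. Named genes are Car6, called genes, the 12 smallest p per direction, the 5 largest differences per direction without overlap, all tested clock, Oas and carbonic anhydrase genes, up to 5 members with the smallest p of each other list, up to 10 of the genes near Car6, and the 3 smallest p per direction for the difference between tissues. Genes near Car6 beyond 10 and members beyond 5 that are named were chosen after their values were seen.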

Additional observations from a re-analysis of the deposited data

Results flagged for a closer look

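In 15 of 204 groups of samples examined for the genes named, 1 sample lay far from the rest of its group, where chance alone gives about 10. Car6-/- lung 7 was set apart from the other Car6-/- lungs most often. It was lowest for Clock, at 8.57 against 9.02 to 9.19 in the others, for Cacybp, at 5.75 against 6.29 to 6.57, and for Loxl1, at 10.82 against 11.09 to 11.24, and it was highest for Car11, at 5.58 against 5.09 to 5.18. Car6-/- lung 5 was lowest for Hyal2 (11.15, the others 11.44 to 11.57), and Car6-/- lung 2 was lowest for Agtrap (7.69, the others 8.44 to 8.70).

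Among wild-type lungs, number 1 was lowest for Per3 (4.41, the others 5.10 to 5.58) and highest for Gsta4 (9.29, the others 8.93 to 9.10) and probe ILMN_2943135 (9.93, the others 9.67 to 9.79). Wild-type lung 4 was lowest for Bag3 (10.56, the others 10.86 to 11.04) and Pik3cd (5.30, the others 5.58 to 5.82) and highest for Etv5 (8.11, the others 7.58 to 7.80). Wild-type lung 3 was highest for Car14 (8.00, the others 6.92 to 7.27), wild-type lung 7 for Cyp2e1 (10.38, the others 7.92 to 8.85), and wild-type lung 8 was lowest for Tef (9.23, the others 9.81 to 10.12).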

How the results depend on the processing

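The 2 calls in lung became 0 with median scaling, with every probe tested separately, without second arrays, with all 4 groups in 1 fit and with the replicate block, 4 with detection required in every sample of a group, 5 without background correction, with offset 50, with the authors' deposited values or with trend and robust variance, and 6 with array weights. They stayed at 2 with quantile normalization of lung arrays only and with no filter. In lung the replicate block joined Car6-/- and wild-type samples of one number, although the labels state no such pair. For the difference between tissues it joined a lung and a trachea of one genotype and number. Leaving out 1 lung gave 0 to 34 calls: 34 without Car6-/- lung 7, 5 without Car6-/- lung 5, 4 without wild-type lung 1 or 8, 2 without wild-type lung 2, 1 without wild-type lung 3 and 0 without any other. An alternative chosen after seeing the data, without Car6-/- lung 5 and wild-type lung 6, gave 0. At an unadjusted p under 0.05 the count ran from 340 (all 4 groups) to 1323 (no filter). The 0 calls for the difference between tissues stayed at 0 except when 1 sample was left out, which gave 0 to 487: 487 without Car6-/- trachea 4, 100 without Car6-/- trachea 5 and 1 without wild-type trachea 3. The causes were not tested. Over all genes tested, same-numbered lungs did not deviate together (r = -0.30 to -0.02 over 6 pairs). Nor did most lungs and tracheae of one number (r = -0.17 to 0.11 over 14 pairs). The numbers were not taken as pairs in the main fits. These correlations cannot tell whether a lung and a trachea of one number come from 1 mouse. For Rab6b wild-type numbers 1 and 2 stood apart in both tissues, while Car6-/- number 1 did so in trachea only. For Dbp the same numbers stood apart in both tissues, and for Nfil3 they did not. Of the 67 genes followed with a difference of 0.3 or more, 27 became smaller by over 1.5 times without background correction, 24 with the authors' deposited values and 12 with an offset of 50. So did Mt1 with median scaling (-0.18) and Cd79b without Car6-/- lung 2 (-0.19). Of all 102 genes followed, 94 never changed sign. The other 8 had differences near 0 or wide errors: Per1 became 0.04 and Car4 0.06 with median scaling, Car14 became 0.05 and Car4 0.00 with the replicate block, and Rora became -0.05 and Car13 0.08 without Car6-/- lung 5 and wild-type lung 6. Over single samples left out, Rora ran from -0.03 to 0.05, Cry2 ran from -0.09 to 0.01, Per1 ran from -0.12 to 0.06, Car13 ran from -0.17 to 0.04, Car14 ran from -0.15 to 0.03, Car3 ran from -0.69 to 0.20, Car4 ran from -0.09 to 0.03 and Aatk ran from -0.12 to 0.01. Median scaling put the median of all genes at 0.051. Of 34 lists, 16 kept the sign of their median throughout, those of clock repressors (-0.54 to -0.25), chaperones (0.13 to 0.25) and the unfolded protein response (0.12 to 0.23) among them. Probes near background are compressed, which limits what could be seen for low genes.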

Other observations

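Tracheae carrying the numbers of the lungs that stood apart were read for a few more genes, chosen after their values in lung were seen. Nfil3 was at 8.91 in Car6-/- trachea 1 and at 7.48 to 7.92 in the other Car6-/- tracheae, against 6.49 to 6.87 in 7 wild-type tracheae and 8.10 in wild-type trachea 4. Spon2 was at 9.68 to 10.45 in Car6-/- tracheae 1, 2, 4, 5 and 6 and at 8.93 in number 7, against 8.54 to 9.66 in wild-type tracheae. Clstn1 was at 5.48 and 5.71 in Car6-/- tracheae 2 and 6, the lowest of the 14, and at 5.83 to 6.43 in the other Car6-/- tracheae, against 6.36 to 6.95 in wild-type tracheae. Fbxo44 was at 4.56, 5.02 and 4.57 in Car6-/- tracheae 2, 6 and 7 and at 5.85 to 6.18 in the other 3, against 5.56 to 6.57 in wild-type tracheae. The labels do not state that a lung and a trachea of one number come from 1 mouse.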
